A study of Mus musculus with 89 samples.

Results

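The lungs described here came from mice with ovalbumin-induced allergic airway inflammation that were also given methylaminated copper oxide, CuO NH3, at the lowest dose tested. The samples were chosen by their labels, which gave CuO NH3, a dose of 2.5 and an OVA challenge, and 3 of the 89 samples of the study met that rule. They were compared with the 8 OVA-challenged control samples that received no nanomaterial. All mice, controls included, were female BALB/c animals aged 6 to 8 weeks that had been sensitized with OVA in Alum, so a PBS-challenged mouse in this study was sensitized too. Challenge with OVA or PBS, with or without the material, was given by oropharyngeal aspiration on 4 consecutive days, and lung tissue was taken 24 h after the last aspiration, after the airways had been lavaged. The dose was 2.5 μg a day per mouse, the unit of the sample descriptions, while the treatment text of the labels has mg. Each array sample was a pool of RNA from 2 samples, so the spread between samples is a spread between pools, and p-values measure only that spread. Mice of both kinds received 4 materials (core CuO, carboxylated CuO COOH, CuO NH3 and PEGylated CuO PEG) at 3 doses of 2.5, 10 and 40, and the comparisons below ask what the aminated material did in allergic lung, and how that differed by challenge, surface coating and dose.

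Inhaled OVA in sensitized mice drives a T helper 2 response, in which cytokines such as interleukin-13 recruit eosinophils, induce mucus-producing goblet cells and turn macrophages towards arginase, resistin-like and chitinase-like proteins. Poorly soluble particles are taken up by lung macrophages, dissolve in part in their lysosomes, and draw monocytes and neutrophils through chemokines. Copper released in cells is bound by metallothioneins, and oxidative stress induces haem oxygenase and other enzymes. Club cells of the airway lining carry most of the cytochrome P450 enzymes of the lung.

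The 11 samples were technically close to each other but not equally bright. The median foreground intensity was 61 to 164.5 in the 11 samples and 78 to 81.25 in the 3 exposed ones. The share of spots well above background was 44.6 to 53.3% in the exposed and 48.1 to 65.4% in the control samples, and 0 spots were saturated. The correlation between pairs of these samples was 0.979 to 0.997. Exposed sample 2 was hybridised on the same array as control 6, and because array was a term of the model that array carried most of the comparison, with a weight of 0.542 for exposed sample 2, 0.229 for each of the other exposed samples and -0.542 for control 6.

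CuO NH3 at 2.5 changed 205 of 22851 genes in allergic lung, 0.897% of those tested, taking as called those with adjusted p under 0.05 in limma and more than 1.5-fold change (0.58 on the log2 scale). Of these, 101 were higher (0.442%) and 104 lower (0.455%) than in OVA-challenged controls. Both shares are the background for every count of called list members below. The risers included genes of phagocytic macrophages, a monocyte chemokine and eosinophil granule proteins, and the fallers included drug-metabolising enzymes of the airway lining and genes of blood vessel endothelium. At an unadjusted p below 0.05 there were 3384 genes. The median log2 fold change was 0.85 in the risers and -0.81 in the fallers, and the median standard error over all genes was 0.133. All 3 exposed samples lay above all 8 controls in 77 of the 101 risers and below them in 87 of the 104 fallers, whereas over all genes 4.11% lay wholly above and 5.29% wholly below. Without exposed sample 2 or without control 6, which leaves the other alone on its array, 0 genes were called in limma, with 1255 at an unadjusted p below 0.05, so the calls below rest on that array, and 348 and 328 were called without exposed sample 1 and without control 5. The named genes are the 12 largest non-overlapping rises, the 12 largest such falls and the called members of gene lists, 45 called genes in all. Each kept its sign without that array's pair, at a median of 0.67 times its log2 fold change and a smallest size of 0.2. The count also moved with the batch terms, from 41 with dye alone and the 2 groups alone to 1733 with dye and replicate number. In bulk tissue, fewer cells of a type and less RNA per cell cannot be told apart.

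**Figure D1:**
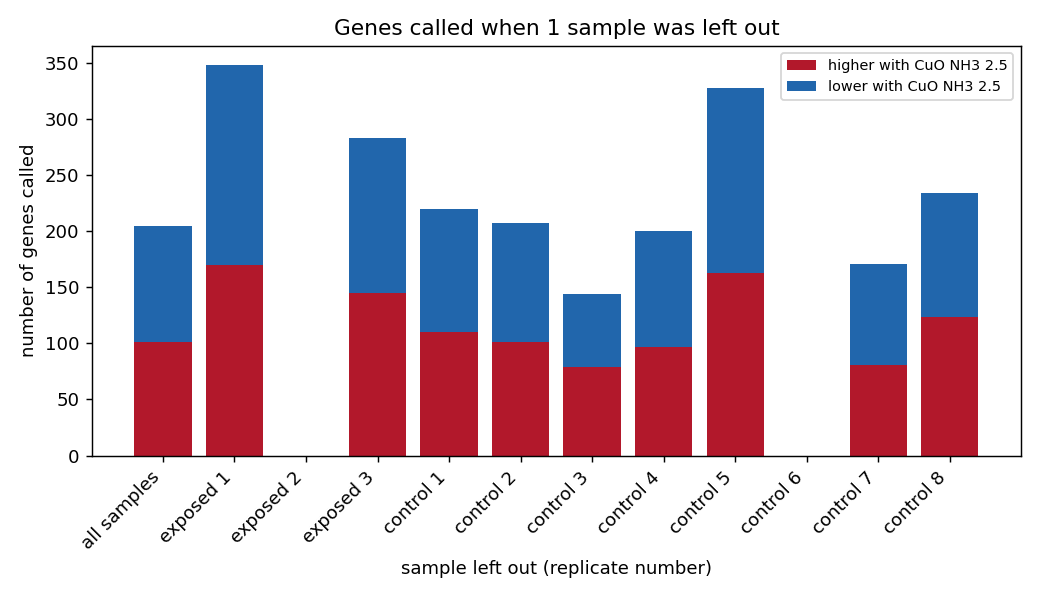
Number of genes called in CuO NH3 2.5 against OVA-challenged controls, higher and lower, when each of the 11 samples was left out in turn. The count was 205 with all samples, 0 without exposed sample 2 or control 6, and up to 348 without exposed sample 1.

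In what follows, levels are quantile-normalized log2 intensities with dye, slide and array position removed, and fold changes are the fitted log2 differences of the model, which compares mostly within arrays and can therefore differ from the difference of the levels shown. The largest rise was that of Gpnmb, a transmembrane glycoprotein of macrophages whose expression rises with lysosomal stress. Its level was 10.96, 10.87 and 10.82 in the 3 exposed samples, and 8.46 at the lowest, 8.58 at the median and 8.95 at the highest of the 8 controls. The exposed samples were nearly equal and far above every control. The log2 fold change was 2.34 with a standard error of 0.42 (limma, adjusted p = 0.0072), a 5.05-fold rise.

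Trem2, a lipid-sensing receptor of macrophages, stood at 13.09, 13.32 and 13.28 in exposed samples against 11.77, 12.16 and 12.73 at the lowest, median and highest control. Ctsl, a lysosomal cysteine protease, stood at 14.72, 15.02 and 14.99 against 13.32, 13.79 and 14.05. In both genes the groups did not overlap. The log2 fold change was 1.32 ± 0.21 (SE) for Trem2 (limma, adjusted p = 0.00385) and 1.40 ± 0.25 for Ctsl (adjusted p = 0.0072). Htr2b, a serotonin receptor, was at 8.1, 8.4 and 8.42 against controls of 6.56 to 7.06, with a median of 6.84. It had the smallest adjusted p of the 12 largest rises, with a log2 fold change of 1.67 ± 0.22 (limma, adjusted p = 0.00131). Cd209f, a C-type lectin of the DC-SIGN family, was at 8.87, 9.31 and 9.14 against 7.7 to 8.43 (log2 fold change 1.36 ± 0.32, adjusted p = 0.0391), and its probe may also bind the closely related Cd209g. With the shared array left out and dye, slide and position as terms, a setting chosen after seeing the data, the rises of Gpnmb (2.28), Htr2b (1.36), Hal (1.22), Ctsl (1.07), Trem2 (0.92), Fam20c (0.88) and Arg2 (0.81) were still called, and the other 5 of the 12 were not. Of the 12 largest falls only Igfbp3 (-0.76) was called there. These were the 8 of the 45 named called genes that stayed called, and 37 did not. No gene named only as a called list member was called there, which takes in the endothelial markers and the club cell enzymes.

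Further macrophage genes were picked out after their values were seen, so they describe the called list and test nothing. These 17 surface and lysosome genes were taken from the risers, so all were higher, with log2 fold changes from 0.59 to 1.27. Of them 11 did not overlap with the controls, beside 77 of all 101 risers. They included the scavenger receptors Cd163 (1.2) and Msr1 (0.80), the F4/80 antigen gene Adgre1 (0.63), galectin-3, Lgals3 (0.76), the lysosomal protease legumain, Lgmn (0.84), the Fc receptors Fcgr2b (0.88) and Fcgr3 (0.87), and the proton pump subunit Atp6v0d2 (0.81). The 15 listed markers of alveolar and lipid-handling macrophages, by contrast, had a median log2 fold change of -0.31 beside 0 over all genes. Among them 1 was called higher, the fatty acid binding protein Fabp5, and 0 lower, and 10 were negative. Fabp5 was at 14.74, 15.02 and 14.76 in exposed samples against 13.74 to 14.24 in controls (1.05 ± 0.22, limma, adjusted p = 0.0168). Marco, a scavenger receptor of resident alveolar macrophages, had a log2 fold change of -1.86 and was not called (adjusted p = 0.0789). The mean level of the alveolar list over its members was 10.62 to 10.77 in the exposed and 10.88 to 11.1 in the control samples, which did not overlap.

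Spp1, osteopontin, a secreted matrix protein of activated macrophages, was at 14.37, 14.74 and 14.46 in the exposed samples and at 12.41, 13.21 and 13.88 at the lowest, median and highest control. All 3 exposed samples were above all controls. The fitted log2 fold change was 1.72 ± 0.24 (limma, adjusted p = 0.00187). It was the 1 called gene of 13 collagen and wound matrix genes, whose median was 0.25. Of 11 matrix metalloproteinases and inhibitors 2 were called higher, beside 0.442% of all genes. Both were proteases: Mmp13 at 7.54, 7.47 and 7.4 against 6.46 to 7.16 (0.73 ± 0.17, limma, adjusted p = 0.0346) and Mmp19 at 9.82 in each exposed sample against 8.92 to 9.72 (0.65 ± 0.16, adjusted p = 0.0434). The pattern recognition receptor Clec4d was at 9.93, 10.35 and 9.75 against 8.72 to 9.17 and was the 1 called gene of 13 complement and pattern recognition genes (0.97 ± 0.22, adjusted p = 0.0279).

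**Figure D2:**
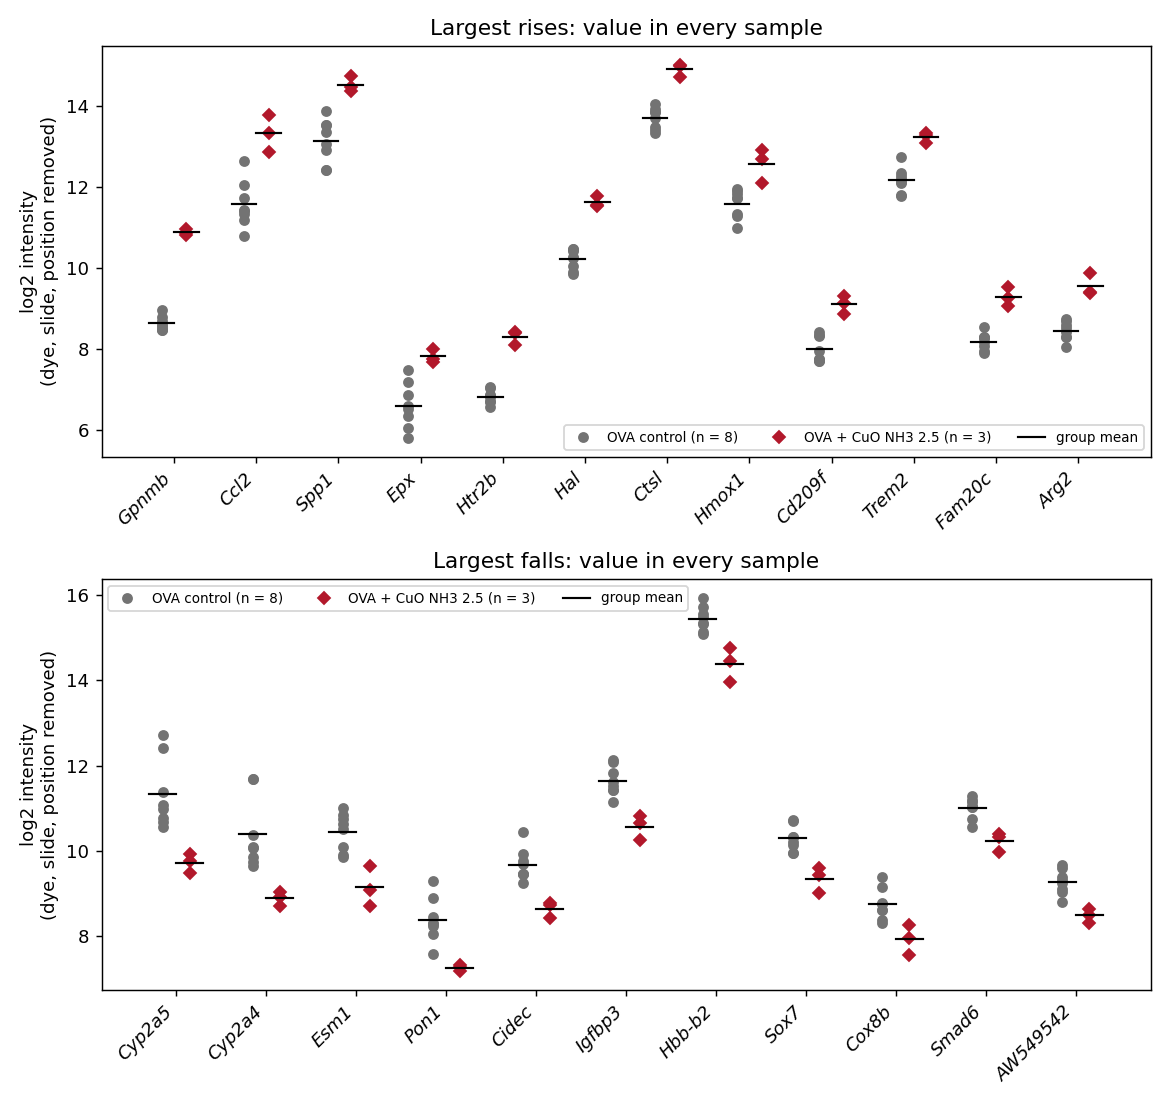
Level of 12 of the largest rises and 11 of the largest falls in every sample (log2 intensity with dye, slide and array position removed), with the 3 exposed samples and the 8 OVA-challenged controls as separate points. The exposed samples lie on one side of all controls in each of these genes, which is part of how they were chosen, and the controls spread most in Cyp2a5, from 10.56 to 12.73.

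Ccl2, the main chemoattractant of monocytes, was at 12.87, 13.78 and 13.32 in exposed samples. The controls ran from 10.8 to 12.65 with a median of 11.42. The groups did not overlap, but control 8 at 12.65 lay just below the lowest exposed sample, and the call was close to the threshold (1.81 ± 0.45, limma, adjusted p = 0.0495). It was the 1 called gene of 10 monocyte chemokines and receptors, whose median log2 fold change was 0.65. Its neighbour and relative Ccl7 was at 11.16, 12.45 and 11.66 against 9.3 to 11.45, overlapped with the controls and was not called (1.75 ± 0.46, adjusted p = 0.0594). The study also measured eotaxin Ccl11, Tnf and the alarmin Il33 by PCR. On the arrays their log2 fold changes were 0.32 ± 0.24 for Ccl11, 0.27 ± 0.25 for Tnf and 0.72 ± 0.20 for Il33 (limma, adjusted p = 0.597, 0.675 and 0.0675). Il13 was not well above background in any of the 11 samples, so it has no fold here.

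Neutrophil markers were higher in value than controls, but 0 passed the test. Of 11 measured markers 11 had a positive log2 fold change, and their median was 0.98. Of these 11, 7 lay wholly above the controls, beside 4.11% of all genes. S100a8, a subunit of calprotectin, had 1.34 ± 0.48 (limma, adjusted p = 0.169), and Mmp8, neutrophil collagenase, 1.01 ± 0.29 (adjusted p = 0.0818). Their mean level was 9.79 to 10.48 in the exposed and 9.01 to 9.55 in the control samples, without overlap. Of 12 CXCR2 ligands and neutrophil growth factors 0 were called, with a median of 0.28. Of 15 acute phase genes 0 were called, with a median of 0.46 and the largest values in the acid glycoproteins Orm1 (1.80, adjusted p = 0.0652) and Orm2 (1.74, adjusted p = 0.0641). The mean level of the acute phase list was 10.09 to 10.27 in the exposed and 9.53 to 9.89 in the control samples, also without overlap. Of the 39 lists, the only others without overlap in mean level were those of alveolar macrophages, club cell enzymes, endothelium, NK cells, fibroblasts with smooth muscle, and adipocytes, all below controls. How often such means separate without an exposure was not tested. Of 14 pro-inflammatory cytokine and NF-kB feedback genes 0 were called, with a median of 0.24.

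Among genes of the allergic response 2 of 11 eosinophil genes were called higher, beside 0.442% of all genes. Epx, eosinophil peroxidase, was at 7.69, 8.01 and 7.76 in exposed samples and at 5.8, 6.54 and 7.47 at the lowest, median and highest control, of which 6 of 8 were well above background. Prg2, eosinophil major basic protein, was at 9.18, 9.24 and 9.35 against 7.7 to 8.87. Both groups of values were free of overlap. The log2 fold changes were 1.71 ± 0.23 for Epx (limma, adjusted p = 0.00132) and 1.22 ± 0.23 for Prg2 (adjusted p = 0.0101). All 11 genes of the eotaxin and eosinophil list were positive, with a median of 0.34, but the eosinophil surface lectin Siglecf had only 0.29 and the cytokine Il5 0.34. Of 12 T helper 2 cytokines and alarmins 0 were called (median 0.16), of 12 T helper 2 and lymphoid chemokines 0 (median 0.16), and of 11 goblet cell and mucin genes 0 (median 0.12), with Muc5ac, the inducible airway mucin, at 0.40 ± 0.55 (adjusted p = 0.818).

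Arg1, the arginase of alternatively activated macrophages, was at 12.99, 14.18 and 13.5, and the controls ran from 10.93 through a median of 12.02 to 13.18. Control 8 was above the lowest exposed sample, so the groups overlapped. Its log2 fold change was 1.82 ± 0.43 (limma, adjusted p = 0.0363), and it was the 1 called member of 10 resistin-like, chitinase and arginase genes, all 10 of which were positive with a median of 0.70. Arg2, the mitochondrial arginase, was free of overlap at 9.41, 9.87 and 9.37 against 8.06 to 8.73 (1.28 ± 0.20, adjusted p = 0.00373). Hal, histidine ammonia-lyase, was at 11.55, 11.78 and 11.52 against 9.86 to 10.46 (1.64 ± 0.28, adjusted p = 0.00456). Fam20c, the kinase of secreted proteins including osteopontin, was at 9.27, 9.52 and 9.05 against 7.89 to 8.54 (1.31 ± 0.25, adjusted p = 0.0107). Genes of mitosis were positive in 20 of 20 with a median of 0.49. Of them 2 were called higher, beside 0.442% of all genes: topoisomerase Top2a (0.69) and the spindle kinase Aurka (0.68), whose samples overlapped with the controls.

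**Figure D3:**
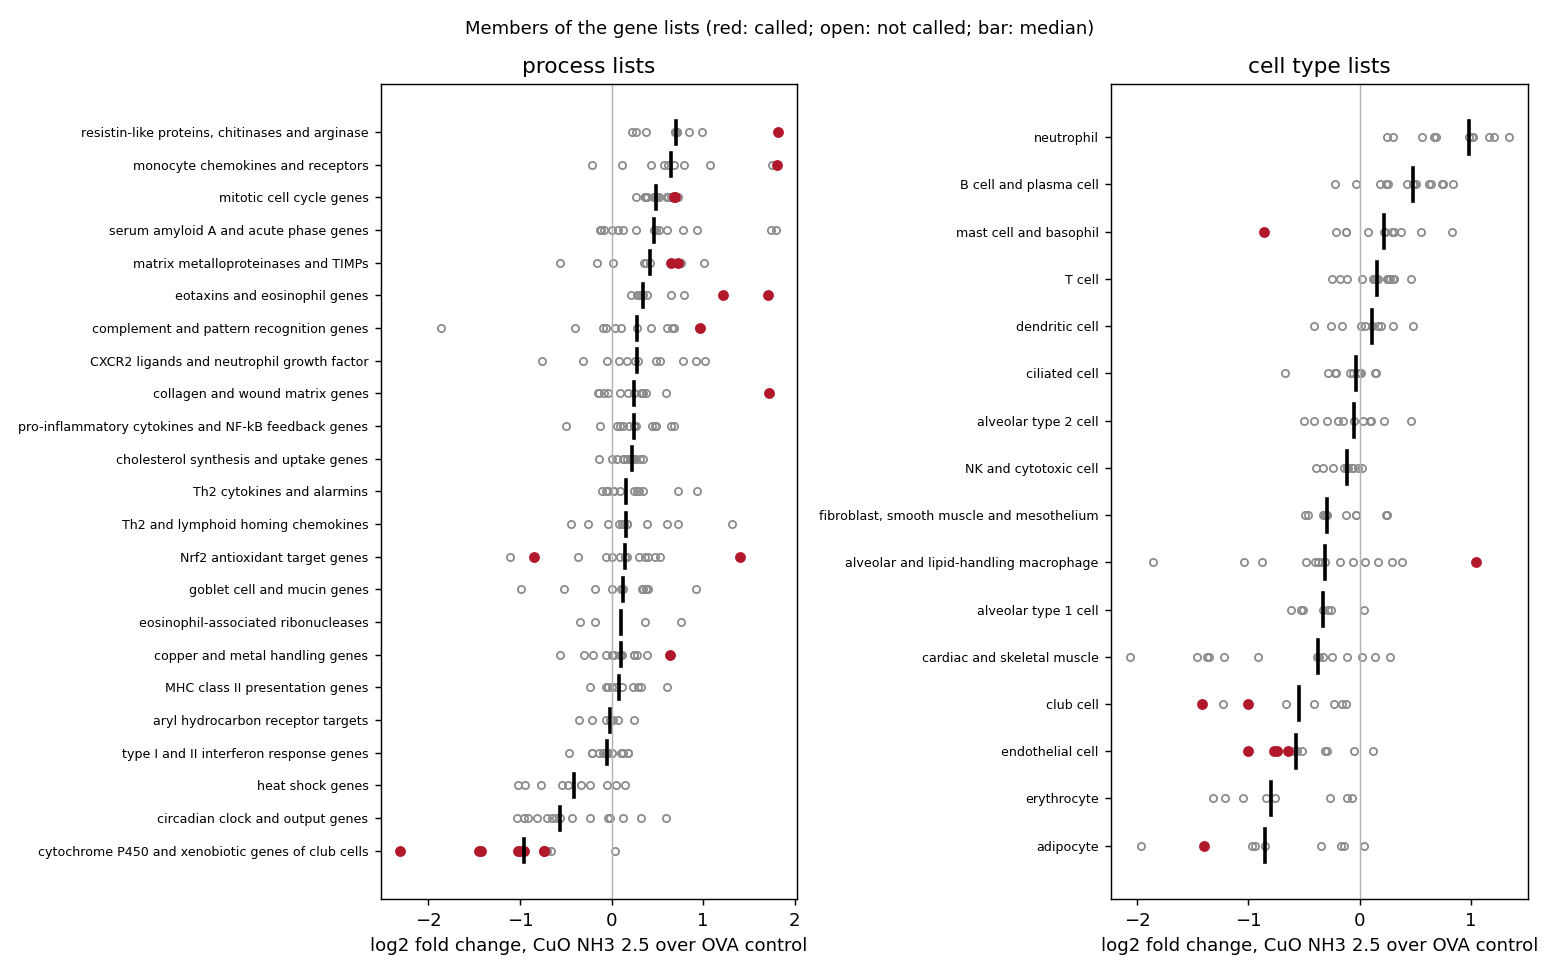
Fitted log2 fold change of every measured member of the gene lists in CuO NH3 2.5 against OVA-challenged controls, with called members in red and a bar at the median of each list. The median over all genes is 0. The enzyme list of club cells has 8 called members, all lower, and the neutrophil list has a median of 0.98 and 0 called members.

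Few of the genes that answer to metals and oxidants passed the test. Mt1, the copper- and zinc-binding metallothionein, was at 11.18, 11.34 and 11.16 in exposed samples against 10.22, 10.62 and 10.91 at the lowest, median and highest control, and its groups did not overlap. Its log2 fold change was 0.64 ± 0.14 (limma, adjusted p = 0.023). It was the 1 called gene of 14 copper and metal handling genes, whose median was 0.10. Its partner Mt2 had 0.39 (adjusted p = 0.45), and the zinc exporter Slc30a1 passed the p threshold at -0.56 (adjusted p = 0.0186) but not the 1.5-fold limit. The promoter of Mt1 is shown because metallothioneins are induced through metal response elements, bound by the factor MTF-1. The 250 bases before its start (RefSeq, build GRCm38.p6, chr8:94178839-94179088, plus strand) held 1 match to the core letters TGCGCNC or TGCACNC on either strand, printed in capitals 23 bases before the start. Such a match was in 7032 of 32851 promoter windows of that length, 21.4%. Only the window of this 1 annotated start was searched, so elements elsewhere around the gene are not counted.
Mt1: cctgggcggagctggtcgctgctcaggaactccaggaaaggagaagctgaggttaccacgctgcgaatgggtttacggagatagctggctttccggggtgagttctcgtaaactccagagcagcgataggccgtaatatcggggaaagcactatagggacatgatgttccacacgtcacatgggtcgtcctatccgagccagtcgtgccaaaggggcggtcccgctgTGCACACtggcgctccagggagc

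Hmox1, haem oxygenase, which breaks down haem and is induced by oxidative stress, was at 12.68, 12.9 and 12.09 in the exposed samples and at 10.98, 11.73 and 11.96 at the lowest, median and highest control. The lowest exposed sample was just above the highest control. Its log2 fold change was 1.40 ± 0.22 (limma, adjusted p = 0.00385). Of 15 Nrf2 target genes Hmox1 was called higher and Gstm1, a glutathione transferase, lower, and the median was 0.15. Gstm1 was at 12.08, 11.85 and 12.04 against 12.04 to 13 (-0.85 ± 0.17, adjusted p = 0.0125), overlapped with control 8, and is close in sequence to other Gstm genes. The classical target Nqo1 had -0.06 (adjusted p = 0.922). The antioxidant response element core TGACNNNGC was not in the promoter windows of Gstm1 and in 10.2% of all windows. Of 10 heat shock genes 0 were called, and their median was -0.41.

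Enzymes of the airway lining that oxidise foreign compounds had more called members than any other of the 39 lists: of 11 measured members 8 were called lower and 0 higher, beside 0.455% of all genes called lower, and their median log2 fold change was -0.96. The largest fall was in Cyp2a5, a coumarin and nicotine hydroxylase, at 9.49, 9.93 and 9.76 in the exposed samples against 10.56, 11.03 and 12.73 at the lowest, median and highest control. The exposed samples were below every control, and controls 6 and 7 stood above the rest at 12.73 and 12.42. Its log2 fold change was -2.31 ± 0.45 (limma, adjusted p = 0.0117). Its near copy Cyp2a4, a steroid hydroxylase, was at 8.72, 9.03 and 8.93 against 9.64, 10.09 and 11.7 (-2.23 ± 0.38, adjusted p = 0.00445), with the same 2 controls highest. Probes of such a pair can bind both transcripts, so their values may not be separate. Their promoters are shown because they differ so little: over the 299 bases aligned around the start, 294 were identical, 98.3%. The 249 bases before each start (RefSeq, build GRCm38.p6, plus strand, chr7:26306943-26307191 for Cyp2a4 and chr7:26835089-26835337 for Cyp2a5) follow, with the 4 differing bases in capitals.
Cyp2a4: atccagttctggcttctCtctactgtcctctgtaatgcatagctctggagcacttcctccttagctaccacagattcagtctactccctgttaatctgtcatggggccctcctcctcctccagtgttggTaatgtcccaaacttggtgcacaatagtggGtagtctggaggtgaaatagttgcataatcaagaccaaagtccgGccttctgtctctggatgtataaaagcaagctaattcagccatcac
Cyp2a5: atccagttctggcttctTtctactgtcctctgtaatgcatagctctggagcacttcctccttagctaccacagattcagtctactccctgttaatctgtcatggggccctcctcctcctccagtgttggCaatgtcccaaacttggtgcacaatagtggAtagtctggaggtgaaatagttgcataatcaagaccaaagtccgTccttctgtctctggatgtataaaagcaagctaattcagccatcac

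The other enzymes fell from high levels. Cyp2f2, the most abundant P450 of club cells, was at 14.31, 14.07 and 14.43 against 14.4 to 16.08, and only control 8 reached the exposed range. Its log2 fold change was -1.42 ± 0.30 (limma, adjusted p = 0.0183). Cyp4b1, a fatty acid and amine hydroxylase, was at 12.01, 11.73 and 12 against 12.21 to 13.16 (-1.02 ± 0.20, adjusted p = 0.0125). The flavin monooxygenase Fmo2 fell by 0.96 on the log2 scale (adjusted p = 0.0279), retinal dehydrogenase Aldh1a1 by 1, carboxylesterase Ces1d by 0.74 and epoxide hydrolase Ephx1 by 0.74. Pon1, a paraoxonase outside that list, was at 7.27, 7.18 and 7.33 against 7.58 to 9.3 (-1.51 ± 0.19, adjusted p = 0.00113). The defining secretory protein of club cells, Scgb1a1, had -0.16 ± 0.30 (adjusted p = 0.875), and of 8 club cell markers the 2 called ones, Cyp2f2 and Aldh1a1, are also in the enzyme list. The mean level of the enzyme list was 11.77 to 11.93 in exposed and 12.09 to 13.05 in control samples.

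Endothelial genes were also among the falls. Esm1, a proteoglycan of tip cells of growing vessels, was at 9.09, 8.72 and 9.64 in exposed samples and at 9.87, 10.57 and 11.01 at the lowest, median and highest control. No control was as low as an exposed sample. The log2 fold change was -1.68 ± 0.28 (limma, adjusted p = 0.00391). Sox7, an endothelial transcription factor, was at 9.44, 9.01 and 9.61 against 9.95 to 10.73 (-1.23 ± 0.26, adjusted p = 0.0217), and Smad6, an inhibitor of BMP signalling, at 10.41, 9.98 and 10.32 against 10.57 to 11.3 (-1.12 ± 0.22, adjusted p = 0.0133). Igfbp3, which binds insulin-like growth factors, was at 10.81, 10.25 and 10.65 against 11.16 to 12.13 (-1.25 ± 0.20, adjusted p = 0.00391). In each of the 4 genes exposed sample 2 was the lowest.

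Of 12 endothelial markers 4 were called lower and 0 higher, beside 0.455% of all genes called lower, 11 were negative and the median was -0.57. The VEGF receptor gene Kdr was at 11.67, 11.49 and 11.63 against 11.81 to 12.24 (-0.64 ± 0.14, limma, adjusted p = 0.0242). Tmem100, a BMP-induced membrane protein, was at 10.55, 10.34 and 10.55 against 10.84 to 11.46 (-1 ± 0.24, adjusted p = 0.0372). Egfl7 fell by 0.74 and the adrenomedullin co-receptor gene Ramp2 by 0.77 on the log2 scale. The junction genes Cdh5 (-0.59, adjusted p = 0.0779) and Pecam1 (-0.29, adjusted p = 0.635) were not called. The mean level of the list was 11.3 to 11.53 in exposed samples and 11.55 to 12 in controls. A further 6 vascular genes, picked after their values were seen, were lower by -1.16 to -0.88: the natriuretic peptide receptor Npr3, Nova2, the arterial ephrin Efnb2, the lung mesenchyme and vessel factor Foxf1, the endothelial chemokine Cx3cl1 and apelin, Apln. Gata2, a factor of endothelium, mast cells and basophils, was at 9.91, 9.41 and 9.7 against 10.16 to 10.58 (-0.86 ± 0.19, adjusted p = 0.0302) and was the 1 called gene of 12 mast cell and basophil markers, whose median was 0.22.

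Some falls were in genes of tissues that lie beside the lung or fill its vessels. Cidec, a lipid droplet protein of fat cells, was at 8.77, 8.42 and 8.73 against 9.25 to 10.44 (-1.40 ± 0.35, limma, adjusted p = 0.0496). It was the 1 called gene of 9 adipocyte markers, of which 8 were negative (median -0.85), and the mean level of that list was 7.02 to 7.27 in exposed and 7.38 to 8.07 in control samples. Hbb-b2, a beta globin, was at 14.45, 13.96 and 14.75 against 15.09 to 15.94 (-1.24 ± 0.31, adjusted p = 0.0492), with near-identical copies in the genome, and 8 of 8 measured erythrocyte markers were negative (median -0.80) with 0 called. Cox8b, a cytochrome oxidase subunit of heart, skeletal muscle and brown fat, was at 7.56, 7.96 and 8.27 against 8.3 to 9.4 (-1.21 ± 0.30, adjusted p = 0.044). Of 14 muscle markers 0 were called, with a median of -0.37. The uncharacterised AW549542 was at 8.5, 8.32 and 8.65 against 8.81 to 9.68 (-1.10 ± 0.20, adjusted p = 0.0072). The part of blood, fat and other tissue in these falls was not tested.

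The remaining lists gave 0 called genes each. The medians were -0.56 for 15 circadian clock genes, of which 12 were negative, 0.22 for 15 cholesterol genes, -0.05 for 13 interferon response genes, 0.08 for 10 MHC class II genes, 0.10 for 4 eosinophil-associated ribonucleases and -0.02 for 7 aryl hydrocarbon receptor targets. Among cell types, the medians were 0.16 for T cells, 0.48 for B and plasma cells, -0.11 for NK cells, 0.11 for dendritic cells, -0.33 for alveolar type 1, -0.05 for alveolar type 2 and -0.03 for ciliated cells, and -0.29 for fibroblasts, smooth muscle and mesothelium. Mean levels lay below all controls in the NK cell list (7.86 to 8.03 against 8.07 to 8.25). The same held for the list of fibroblasts, smooth muscle and mesothelium (10.36 to 10.4 against 10.42 to 10.63). The defining markers of lung were present as the label says, with the surfactant gene Sftpc at a mean level of 17.61 ± 0.07 (SD, n = 3) in exposed and 17.39 ± 0.21 (SD, n = 8) in control samples, and Scgb1a1 at 17.08 ± 0.19 and 17.22 ± 0.19.

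Whether the effect of CuO NH3 2.5 depended on the OVA challenge was asked with the difference of 2 effects, that in OVA-challenged mice and that in PBS-challenged mice, each against its own controls. It differed in 10 genes (0.0438% of those tested), 2 more positive (0.00875%) and 8 more negative (0.035%) with OVA, and 1801 had an unadjusted p below 0.05. The serum amyloid genes differed most. Saa3, an acute phase protein made in the lung, was at 14.81, 14.92 and 14.97 in OVA-challenged exposed mice and 13.39 to 14.94 in their controls, and at 15.81, 14.86 and 15.66 in PBS-challenged exposed mice and 10.04 to 12.37 in theirs. The PBS-challenged exposed mice were thus far above their controls, whereas the OVA-challenged controls already reached the exposed range. The log2 fold change was 0.78 with OVA and 4.88 with PBS, a difference of -4.10 (limma, adjusted p = 0.0496). Saa1 gave 0.93 and 4.67, a difference of -3.74 (adjusted p = 0.0114), and its OVA controls were 3.15 above its PBS controls.

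Ccl17, a chemokine that draws T helper 2 cells, was at 10.64, 11.09 and 10.97 in OVA-challenged exposed mice within a control range of 10.27 to 11.36, but at 11.12, 10.69 and 10.85 in PBS-challenged exposed mice against 8.19 to 9.26. Its log2 fold changes were 0.17 and 2.42, a difference of -2.25 (limma, adjusted p = 0.0184). Vnn1, the enzyme pantetheinase, was at 9.18, 9.25 and 9.3 in PBS-challenged exposed mice and between 7.06 and 7.78 in the samples of the other 3 groups (difference -2.05, adjusted p = 0.0182). Csf2, the growth factor GM-CSF of macrophages and granulocytes, was at 8.87, 8.67 and 8.84 in PBS-challenged exposed mice and at 7.51, 7.35 and 7.47 in OVA-challenged exposed mice, where the controls ran from 7.53 to 7.81 (difference -1.50, adjusted p = 0.016). The complement protease C1ra (-0.97), the death effector gene Dedd2 (-1.01) and 5430437J10Rik (-1.11) differed in the same direction.

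The genes B3gnt7, a glycosyltransferase, and Gm6116 went the other way, with log2 fold changes of 0.63 and 0.75 with OVA and -0.21 and -0.06 with PBS, and differences of 0.85 and 0.81 (limma, adjusted p = 0.0496 for each). B3gnt7 was at 6.97, 6.8 and 7.19 in OVA-challenged exposed mice and at 6 to 6.65 in the samples of the other 3 groups. In PBS-challenged mice the material changed 221 genes (0.967%), 198 higher and 23 lower, and 28 of the 205 called genes of OVA-challenged mice were among them with the same sign. Between the controls, OVA against PBS, 1199 of 22851 genes were called, and 140 of those 205 were among them with the same sign. Why many changes ran in the direction of the OVA challenge itself was not tested. Exposed sample 1 of each challenge lay on 1 shared array. The count of 10 fell to 0 without either of these 2 samples and on slides 4 to 6 alone, was 23 without OVA control 8, and rose to 249 with dye, slide and position as terms.

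**Figure D4:**
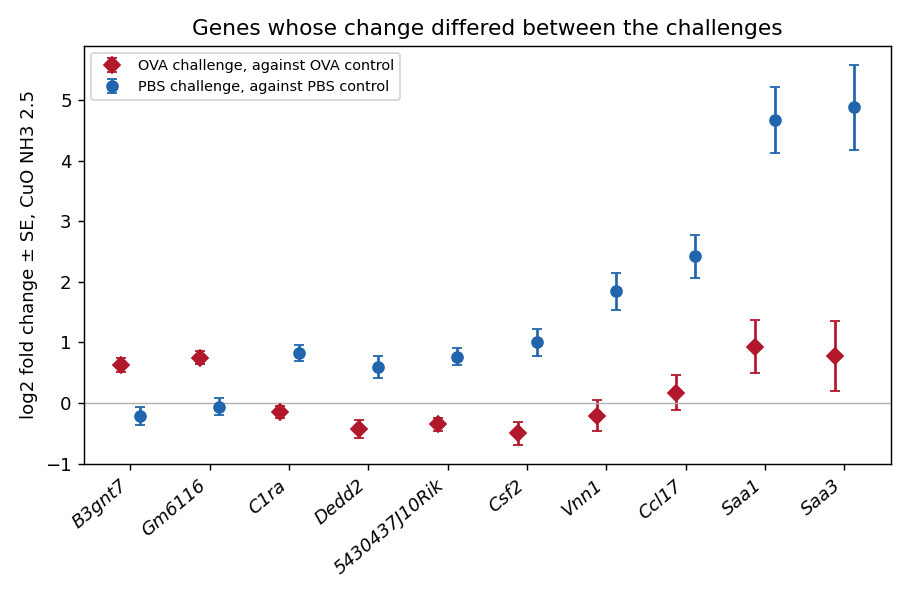
Log2 fold change (± SE) of CuO NH3 2.5 against matched controls in OVA-challenged and in PBS-challenged mice for the 10 genes whose effect differed between challenges. Saa1 and Saa3 sit at 0.93 and 0.78 with OVA and at 4.67 and 4.88 with PBS.

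The surface coatings were compared at the same dose and challenge in 3 pairs, CuO NH3 minus each other material. Doses were equal in mass of the whole material, not in copper. The paper measured less copper in the coated materials than in core CuO, and least in CuO PEG. Coating and amount of copper therefore cannot be told apart in these pairs. From PEGylated CuO, hybridised on the same slides as CuO NH3, 493 genes differed (2.16%), 313 higher (1.37%) and 180 lower (0.788%) with CuO NH3, and 202 when p was adjusted over genes and the 3 pairs together. Spp1 was at 12.1, 12.51 and 12.75 with CuO PEG against 14.37, 14.74 and 14.46 with CuO NH3, without overlap, a difference of 1.95 with a 95% interval of 1.43 to 2.47 (limma, adjusted p = 0.000717). Ccl2 was at 11.02, 11.49 and 11.45 with CuO PEG, below all 3 samples of CuO NH3 (1.85, interval 0.88 to 2.81, adjusted p = 0.029). Arg1 differed by 1.81 (adjusted p = 0.024), the neutrophil chemokine Cxcl5 by 1.79 (adjusted p = 0.0385) and Ccl7 by 1.68 (adjusted p = 0.0441). These p-values were adjusted within the pair, as are those for CuO PEG in the next paragraph. When p was adjusted over genes and the 3 pairs, Spp1 still passed (limma, adjusted p over pairs 0.00215). Ccl2, Arg1, Cxcl5 and Ccl7 did not pass there.

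Esm1 was at 11.48, 11.46 and 11.16 with CuO PEG, above all 3 samples of CuO NH3 at 9.09, 8.72 and 9.64 (-2.03, interval -2.62 to -1.44, limma, adjusted p = 0.00175). Hey1, a Notch target of endothelium, was at 12.02, 12.14 and 12.05 with CuO PEG and 10.77, 10.82 and 10.85 with CuO NH3, tight in both groups (-1.38, adjusted p = 0.00703). Cidec (-1.51, adjusted p = 0.0226), Gm4956 (-1.51, adjusted p = 0.0449) and Cyp2a4 (-1.37, adjusted p = 0.0454) also differed within the pair. Of 11 club cell enzymes 7 were lower with CuO NH3 than with CuO PEG and 0 higher, again within the pair. Against the OVA controls, CuO PEG 2.5 had 0 called genes in limma (1769 at an unadjusted p below 0.05) beside the 205 of CuO NH3, and both used the same controls. Exposed sample 3 shared an array with a CuO PEG sample, and without either of them 22 genes were called in place of 493. With loess normalization the count was 163.

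From core CuO and CuO COOH little could be told apart. These were hybridised on slides 1 to 3 and CuO NH3 on slides 4 to 6, so the pairs were joined only through other samples, and the 95% interval at the median standard error was ± 0.63 for core CuO and ± 0.45 for CuO COOH on the log2 scale, against ± 0.28 for CuO PEG. Core CuO samples 1 and 3 were each alone on an array and so dropped out of the fit, which left core CuO with 1 sample. On that sample 0 genes were called against core CuO in limma (578 at an unadjusted p below 0.05), and its spread was taken to be that of the other groups. Against CuO COOH 2 were called (0.00875%), 1 in each direction (0.00438% each), Pigt (2.09) and Eml2 (-1.04), each with an adjusted p of 0.0208, and 17 over the 3 pairs. The 0 for core CuO holds for p adjusted within its pair. No count over the 3 pairs is given for core CuO, because it rests on 1 sample. The 2 calls became 0 without CuO COOH sample 1 or exposed sample 3, and Eml2 turned to 0.19 with array as a random block. The difference in Gpnmb was 0.46 (-1.53 to 2.44) from core CuO and 0.13 (-1.28 to 1.54) from CuO COOH, and that in Spp1 -0.68 (-1.84 to 0.47) and 0.26 (-0.56 to 1.08). These intervals span differences larger than the called fold, so neither a difference nor likeness was shown. With array as a random block, which uses all 3 core CuO samples and lets slides be compared directly, 895 and 964 genes were called, against 490 for CuO PEG, and for core CuO and CuO COOH slide and material cannot be told apart there. The counts of the 3 pairs therefore have no order that held across settings. Hmox1 passed as lower with CuO NH3 than with CuO COOH only over the 3 pairs (-1.84, interval -2.60 to -1.08, limma, adjusted p over pairs 0.0239). Within that pair it was not called (adjusted p = 0.149). Against the OVA controls core CuO 2.5, again as that 1 sample, had 0 called genes in limma (903 at an unadjusted p below 0.05) and CuO COOH 2.5 had 8 (0.035%).

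**Figure D5:**
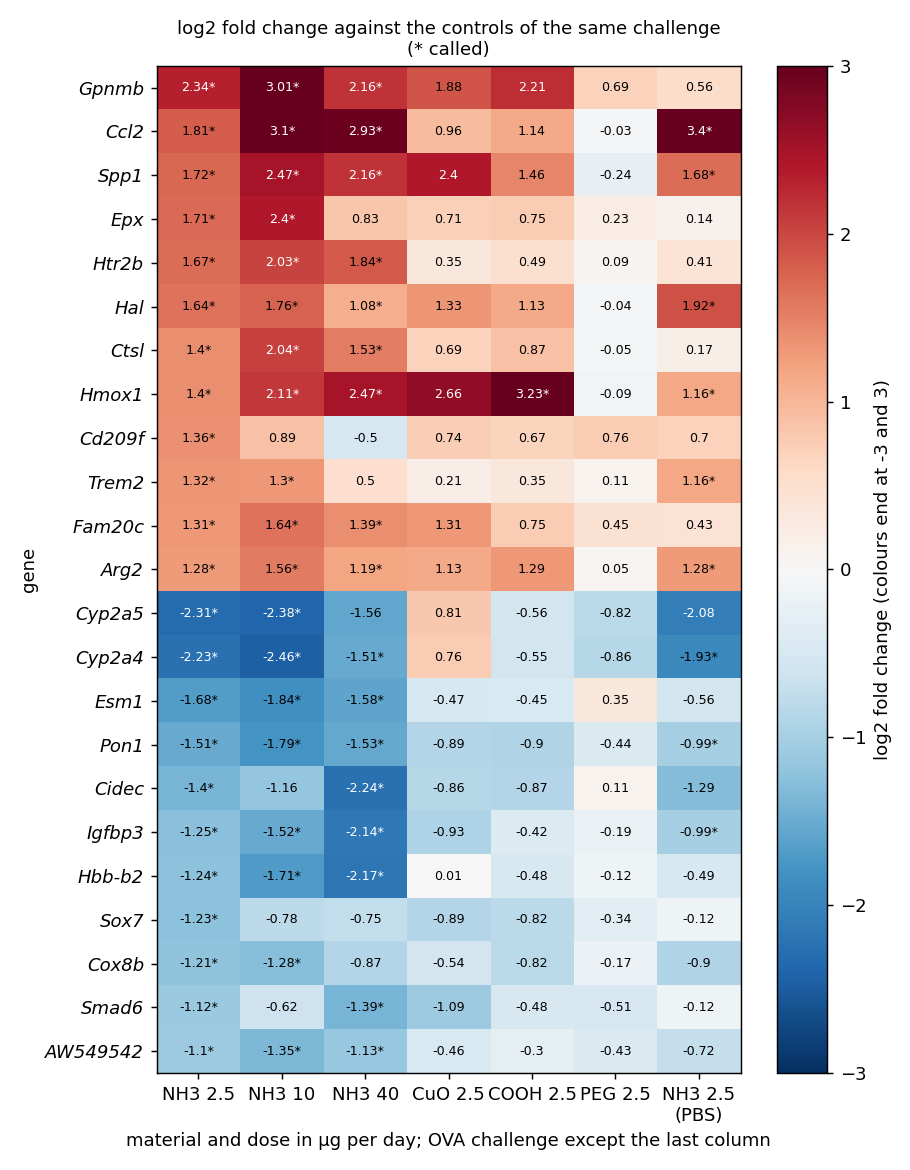
Log2 fold change of 12 of the largest rises and 11 of the largest falls with each material and dose against the controls of the same challenge, with a star for called genes. The first 6 columns share the 8 OVA-challenged controls and the last uses PBS-challenged mice, and the core CuO 2.5 column rests on 1 sample. Spp1 is at 1.72 with CuO NH3 2.5 and Esm1 at -1.68, and CuO PEG 2.5 has no starred gene.

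Raising the dose of CuO NH3 from 2.5 to 10 in OVA-challenged mice gave 0 called genes in limma, with 1344 at an unadjusted p below 0.05, and a 95% interval of ± 0.39 at the median standard error (25 genes without sample 3 at 10, 362 after ComBat). Against the same OVA controls 565 genes (2.47%) were called at 10 and 904 (3.96%) at 40. Raising the dose from 2.5 to 40 changed 159 genes (0.696%), 60 higher (0.263%) and 99 lower (0.433%), with 23 called without sample 1 at 40 and 52 without sample 2 at 2.5, 83 with loess normalization and 886 after ComBat. The largest falls were in genes of mucus and chitinases, which stood near the allergic controls at 2.5. Muc5ac was at 10.37, 11.54 and 11.32 at 2.5, with OVA controls at 10.15 to 11.16, and at 7.38, 7.37 and 7.83 at 40 (-3.46, limma, adjusted p = 0.0228). Chil4, a chitinase-like protein of the allergic airway, was at 12.25, 12.97 and 12.53 at 2.5 and 9.48, 9.36 and 9 at 40 (-3.35, adjusted p = 0.00155). The mucus gene Fcgbp (-3.16), the acidic chitinase Chia1 (-2.67) and the actin-severing Scin (-2.54) fell likewise, and the samples of the 2 doses did not overlap in any of the 5 genes. In the goblet cell list the median against OVA controls was 0.12 at 2.5, 0.32 at 10 and -1.92 at 40.

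Higher at 40 than at 2.5 were Kng1, kininogen (1.52, limma, adjusted p = 0.0137), Clec4d (1.51, adjusted p = 0.0137), Calca, the precursor of calcitonin and CGRP (1.46, adjusted p = 0.0135), and Afp, alpha-fetoprotein (1.44, adjusted p = 0.0378). Clec4d was the 1 of these that was also called at 2.5, and its samples lay at 9.93, 10.35 and 9.75 at 2.5, 10.69, 10.94 and 10.62 at 10 and 11.06, 11.55 and 11.57 at 40, with no overlap between doses and controls of at most 9.17. Ereg, the growth factor epiregulin, was not well above background in any sample at 2.5 and was at least 3.09-fold higher at 40 (adjusted p = 0.0229). The macrophage gene Gpnmb differed by only -0.17 between 40 and 2.5 (-1.32 to 0.97) and Esm1 by 0.10 (-0.66 to 0.86). The club cell enzymes were down by a similar median at the 3 doses, -0.96, -0.93 and -0.95 against the shared OVA controls. The neutrophil list had medians of 0.98, 1.30 and 1.72 at 2.5, 10 and 40 against those controls.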

How the data were processed

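RNA of mouse lung tissue was labelled with Cy3 or Cy5 and measured on 2-colour Agilent arrays, 89 samples in 26 groups on 46 arrays of 6 slides. The deposited scanner output (Feature Extraction, 12.0.2.2 per the file headers) gave the foreground and background intensity of each spot before normalization. A deposited table held log2 values normalized by the authors, which were identical to those computed here. Groups were taken from the labels. The chosen samples and the gene lists were set with earlier results of these data known.

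Median foreground values were log2-transformed with no background subtracted, and all 89 samples were brought to the same quantiles. Outlier spots and 3671 control spots of 62976 were dropped, and the rest averaged to 56605 probes, of which 32994 had a RefSeq gene. These gave 22911 genes, of which 22851 had a value in every sample. limma 3.58.1 in R 4.3.3 fitted all groups with dye and array as terms (17 residual degrees of freedom), with Benjamini-Hochberg adjustment over genes. Genes named were the 12 largest non-overlapping rises and falls, called members of 39 lists, list members that define a role, the genes the study measured by PCR, and the 5 largest called differences each way in other comparisons. Lists were described by counts and medians, with no set test. The number of arrays limits the precision. The fit against OVA controls was tested on simulated data. Alternatives were other background correction, normalization, probe filters and summaries, batch terms, subsets of samples, and each sample left out in turn. Promoter sequences came from RefSeq, build GRCm38.p6. A gene among the largest falls is not reported here.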

Additional observations from a re-analysis of the deposited data

Results flagged for a closer look

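The response to CuO NH3 2.5 differed between OVA-challenged and PBS-challenged mice in 10 genes, by limma's test of the difference itself. The difference, effect with OVA minus effect with PBS on the log2 scale, was 0.85 for B3gnt7 and 0.81 for Gm6116, and it was negative for the others. It was -0.97 for C1ra, -1.01 for Dedd2, -1.11 for 5430437J10Rik and -1.50 for Csf2. It was -2.05 for Vnn1, -2.25 for Ccl17, -3.74 for Saa1 and -4.10 for Saa3. The largest standard error of these differences belonged to the serum amyloid genes, whose OVA controls were themselves well above the PBS controls.

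Probes with no gene name here were outside the comparisons of genes. Of 23502 such probes 22 passed the thresholds in CuO NH3 2.5 against OVA-challenged controls (0.0936%), 7 higher and 15 lower, and 2222 had an unadjusted p below 0.05. None of the 8 control samples stood apart from the others in a gene named from the comparison with controls by Dixon's criterion at the 95% level.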

How the results depend on the processing

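The count of genes against OVA-challenged controls was 205 as reported. It was 1733 with dye and replicate number as terms (a replicate block), 579 with ComBat, 405 with array as a random block, 53 on slides 4 to 6 alone and 41 with the contrast's own groups and dye alone. Other settings stayed within 1.5 times: 209 with normexp, 173 with loess, 248 without dim probes, 236 with the brightest probe, 228 with dye, slide and position (124 of them shared), and 227 with quantile normalization over non-control spots. The deposited log2 table gave the identical count. In 2 settings chosen after seeing the data, with the array of exposed sample 2 and control 6 left out, 130 genes were called with dye, slide and position (28 shared with the 205) and 347 with array as a random block (70 shared). Samples of equal replicate number did not deviate together (correlations of 0.075, -0.014 and -0.14), so the numbers do not pair the samples.

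The difference between challenges, 10 genes as reported, gave 16 without dim probes, 595 with ComBat, 213 with the random block, 249 with dye, slide and position, 234 with the replicate block, 0 on slides 4 to 6 and 18 with the contrast's own groups. Against core CuO, 0 became 1 with the brightest probe, 1218 with ComBat, 895 with the random block, 1053 with the replicate block and 1002 with the contrast's own groups. Against CuO COOH, 2 became 643 with ComBat, 964 with the random block, 10 with dye, slide and position, 1182 with the replicate block and 1173 with the contrast's own groups. Against CuO PEG, 493 became 231 with normexp, 163 with loess, 326 on slides 4 to 6 and 274 with the contrast's own groups. For 10 against 2.5, 0 became 362 with ComBat, 10 with the random block, 10 with dye, slide and position and 13 with the replicate block. For 40 against 2.5, 159 became 83 with loess, 886 with ComBat, 749 with the random block, 727 with dye, slide and position, 804 with the replicate block and 820 with the contrast's own groups. Slides 4 to 6 hold no core CuO or CuO COOH, so those pairs could not be fitted there. The cause of these shifts was not tested.

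With each sample left out in turn, the counts ran from 0 to 348 against controls, 0 to 23 between challenges, 0 to 2 against CuO COOH, 22 to 656 against CuO PEG, 0 to 25 for 10 against 2.5 and 23 to 172 for 40 against 2.5. Against core CuO they ran from 0 to 0 in 5 runs, which says nothing of stability: core CuO samples 1 and 3 carry no weight in the fit, and without sample 2 the pair could not be fitted. Between challenges the samples that moved the count past 1.5 times were OVA controls 2 (4), 5, 7 (6 each) and 8 (23), PBS controls 3 (3) and 6 (6), and exposed samples 1 (0 for either challenge) and 3 (6, OVA). For 40 against 2.5 they were samples 1 (23) and 2 (100) at 40 and 2 (52) and 3 (92) at 2.5, for 10 against 2.5 sample 3 at 10 (25) and sample 2 at 2.5 (4), and against CuO COOH sample 1 of CuO COOH (0) and exposed samples 2 (1) and 3 (0). All 45 named called genes kept their sign in every setting. Ccl11, which was not called, turned to -0.32 with the random block, -1.31 with the replicate block (adjusted p = 0.000349), -0.41 with the contrast's own groups, -0.73 with the random block and the shared array left out, and ran from -0.53 (without control 6 or exposed sample 2) to 0.67 with samples left out. Tnf ran from -0.17 (without either of those) to 0.48, the fitted value of Il13, not well above background in any of the 11 samples and so without a fold, changed sign to 0.01 on slides 4 to 6, and Eml2, against CuO COOH, was 0.19 with the random block and 0.31 with the replicate block and with the contrast's own groups. Genes near background, such as Il13 and Ereg, are limited by signal: 44.6 to 53.3% of spots were well above background in the exposed samples.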
